A study of Mus musculus with 4 samples.

Results

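The genes described here are 10 components of the matrix of the endocardial cushions and heart valves, namely Vcan, Hapln1, Has2, Postn, Dcn, Lum, Bgn, Tnc, Cthrc1 and Col1a1. They were chosen by name, and each matched a unique gene among the 27998 genes counted. Their transcripts were followed in single-cell 3′ libraries of CD31+/CD45- cells sorted from C57Bl6J mouse hearts. Stages E12, E15, P2 and adult (8 weeks) had 1 library each, made from 37, 48, 21 and 6 pooled animals, so stage and library cannot be told apart. All cells were frozen after sorting. Dead cells were removed with a kit at E12 and E15, whereas P2 and adult cells were sorted again for live cells. No library carried a treatment or an engineered allele in the labels.

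Endocardial cushions are swellings of hyaluronan-rich matrix between endocardium and myocardium, which cells leaving the endocardium invade before the cushions are remodelled into valve leaflets. Hyaluronan made by hyaluronan synthases is bound by versican, and link proteins lock the complex in place. In maturing valves this loose matrix gives way to layers with fibrillar collagen, small leucine-rich proteoglycans and matricellular proteins, which are mostly laid down by valve interstitial cells and fibroblasts.

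Each unique molecular identifier (UMI) stands for 1 captured transcript, and levels are given as CPM, the UMIs of a gene per 1000000 UMIs of all genes in the barcodes of a class. Barcodes were gated on raw UMIs. Endocardial barcodes had more UMIs of Npr3 and Tmem108 than of Fabp4, Cldn5 and Aplnr and at least 1 UMI of Pecam1, Cdh5 or Egfl7. Valve-gated barcodes had at least 2 UMIs of Cldn11, Enpp2 and Aqp8. Coronary barcodes had at least 2 UMIs of Fabp4, Cldn5 and Aplnr, above their sum of Npr3 and Tmem108. Non-endothelial barcodes had no UMI of Pecam1, Cdh5 and Egfl7. From E12 to the adult library there were 1120, 1570, 1082 and 74 endocardial barcodes. Valve-gated barcodes numbered 21, 65, 427 and 22, coronary barcodes 113, 1254, 4596 and 4077, and non-endothelial barcodes 2995, 1867, 13 and 133. Classes could overlap, with 235 of the valve-gated P2 barcodes also coronary and 145 also endocardial, while 11 of the 13 non-endothelial P2 barcodes and 101 of the 133 adult ones were also coronary. Of the valve-gated barcodes, 9 of 21 at E12 and 16 of 65 at E15 were also non-endothelial, and 15 of 22 in the adult were also coronary. Intervals in brackets are exact 95% intervals for counting error only, and no test between stages was possible with 1 library per stage. Classes were compared within each library. Taken as blocks, the 4 libraries cannot give a two-sided p below 0.125 in an exact sign permutation test.

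The 4 libraries held 4242 to 6062 called barcodes with a median of 1013 to 4531.5 UMIs, P2 being deepest. Pairs of libraries shared 25 to 60 barcode sequences, at most 1.02% of the smaller library. The gates were checked against other markers. All 6 endocardial markers (Cytl1, Nfatc1, Cgnl1, Smoc1, Plagl1, Igfbp5) were found in endocardial barcodes at every stage, at a summed 2016 to 4052 CPM against 308 to 858 CPM in coronary barcodes. The valve gate was less pure. Of 6 valve markers only 2 were found in its E12 barcodes (Wnt4, Dkk3, Cryab and Prox1 were at 0). The 6 summed to 114, 400, 705 and 495 CPM by stage, against 116, 138, 320 and 485 CPM in endocardial barcodes. They thus did not set the gate apart from endocardial barcodes at E12 or in the adult. Non-endothelial barcodes held 177 and 860 CPM of them at these stages. The valve-gated P2 barcodes held all 5 lymphatic markers, of which Prox1 was also counted as a valve marker, at a summed 1885 CPM, against 172 CPM in endocardial barcodes. Coronary barcodes, the reference of most comparisons, also held all 5 at each stage, at 749, 477, 1032 and 115 CPM. The 7 coronary markers (Cd36, Gpihbp1, Apln, Rgcc, Car4, Timp4 and Gja4) did not set this class apart at E12. They summed to 185 CPM (135 to 248) in coronary and 156 CPM (138 to 177) in endocardial barcodes. From E15 on these markers summed to 1257, 4031 and 8145 CPM in coronary and 160, 365 and 658 CPM in endocardial barcodes. The 7 fibroblast markers summed to 575 to 995 CPM in valve-gated barcodes before adulthood and to 9886 CPM in adult ones. Of the 899 adult UMIs, the markers Col1a2 and Col3a1 held 22 and 53. The 8 cushion mesenchyme markers (such as Sox9, Twist1, Prrx1 and Pdgfra) summed to 682, 553, 181 and 231 CPM in valve-gated barcodes by stage. Endocardial barcodes had 313, 143, 33.6 and 76.9 CPM of them, and coronary barcodes 152, 109, 62.0 and 110 CPM. Non-endothelial barcodes had 1179, 581, 567 and 451 CPM. For these reasons the valve-gated class is called by its gate and is not taken as pure valve endothelium. Given its fibroblast and mesenchyme markers, it is not taken as purely endothelial either. The non-endothelial class too is named by its gate only, the absence of 3 transcripts. All 8 endothelial markers (such as Kdr, Tie1 and Emcn) were found in it at each stage. They summed to 788, 1826, 1015 and 1937 CPM, against 1935, 2539, 4084 and 5377 CPM in coronary barcodes. The endocardial markers summed to 870, 1473, 239 and 642 CPM in it, against 663, 679, 858 and 308 CPM in coronary barcodes.

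Vcan codes for versican, the large proteoglycan that binds hyaluronan in the cushion, and lies at chr13:89655312-89742509 (GRCm38, minus strand, GENCODE M21; ENSMUSG00000021614). In endocardial barcodes it measured 119 CPM (103 to 137) at E12, 53.1 at E15 and 99.2 at P2. The adult value was 0, where 0 of 208061 UMIs allows up to 14.4 CPM. Valve-gated barcodes had 171, 172, 79.7 and 22.0 CPM at the same stages, and coronary barcodes 61.7, 25.6, 25.4 and 2.78 CPM. Versican was thus detected in endocardial, valve-gated and coronary barcodes before adulthood and measured 22.0 CPM or less in the adult ones. Non-endothelial barcodes stood above all other classes at E12, with 451 CPM (431 to 472), then had 186, 105 and 93.4 CPM. This E12 level was separated from the next of the 16 levels. Neighbours among the next 10 levels, from 186 down to 53.1 CPM, did not differ beyond counting error.

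Hapln1 codes for the link protein that stabilizes versican on hyaluronan and is the neighbour of Vcan, at chr13:89539796-89611652 on the plus strand (ENSMUSG00000021613), with 43659 bases and 0 annotated genes between them. Valve-gated barcodes had 455 CPM (260 to 739) and 334 CPM (232 to 464) in the embryonic libraries, then 76.9 and 99.0 CPM. Endocardial barcodes measured 244 (221 to 270), 42.0, 26.1 and 28.8 CPM. Coronary barcodes measured 94.7, 16.7, 12.4 and 2.64 CPM. Hapln1 was therefore above its coronary level in valve-gated barcodes of all 4 libraries, while in the adult 5 of its 9 valve-gated UMIs and 5 of its 6 endocardial UMIs came from 1 barcode in each class. Non-endothelial barcodes had 250 and 78.7 CPM at E12 and E15 and no Hapln1 UMI at P2 or in the adult, which allows up to 44.8 and 11.7 CPM. The first 4 levels in order, valve-gated at E12 and E15 and then non-endothelial and endocardial at E12, did not differ from one to the next beyond counting error, and the fourth lay above the fifth (valve-gated in the adult) by a ratio of 1.29 to 5.44.

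Has2 codes for the hyaluronan synthase needed for cushion formation (chr15:56665627-56694539, minus strand; ENSMUSG00000022367). Its UMIs were few. At E12 it measured 22.2 CPM in non-endothelial barcodes (92 UMIs, 17.9 to 27.2) and 10.4 CPM in endocardial ones (17 UMIs in 17 barcodes). At E15 the levels were 7.82 and 3.19 CPM. At P2 only 1 UMI was found among the 4 classes, in a valve-gated barcode, and the deep coronary class had 0 of 23645578 UMIs, a limit of 0.127 CPM. The 21 valve-gated barcodes of E12 had no Has2 UMI, but at their depth this allows up to 85.3 CPM, so that a level like that of the endocardium was not detectable there.

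Postn codes for periostin, a matricellular protein of valve interstitial cells and activated fibroblasts (chr3:54361109-54391037, plus strand; ENSMUSG00000027750). Its endocardial level was 156 CPM (138 to 177), then 251, 524 (505 to 544) and 332 CPM (258 to 420) in order of stage. Valve-gated barcodes had 284, 629, 914 and 649 CPM, above the endocardial level beyond counting error at each stage but E12, where the ratio was 1.82 (0.862 to 3.40). Coronary barcodes were lower at each stage, at 53.5, 83.3, 134 and 17.7 CPM. Over all barcodes of a class periostin was highest at P2 in each of the 4 classes, and the P2 and adult valve-gated levels differed beyond counting error. Without barcodes that held fibroblast transcripts (any UMI of Col1a2, Col3a1, Pdgfra, Tcf21 or Dpt) the valve-gated series was 606 CPM (388 to 901) at E15, 355 CPM (316 to 397) at P2 and 409 CPM (246 to 639) in the adult, so that P2 was no longer highest. Such a filter depends on depth, and P2 was the deepest library. It also uses Col1a2 and Col3a1, which are matrix genes themselves. The non-endothelial series of 371, 580, 2165 and 46.7 CPM had the widest swing, although the P2 value came from 13 barcodes, 1 of which held 46 of the 145 UMIs.

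Tnc, the gene of tenascin-C, a matricellular protein of remodelling tissue (chr4:63959785-64047015, minus strand; ENSMUSG00000028364), was low throughout. Non-endothelial barcodes held 28.5, 34.2 and 74.7 CPM at E12, E15 and P2. Coronary barcodes held 12.3, 20.8, 8.37 and 1.25 CPM. Endocardial barcodes held 9.19, 5.31 and 15.6 CPM before adulthood and no UMI in the adult. Tnc was the only member that was lower by 2-fold in endocardial than in coronary barcodes, at E15, where the ratio was 0.255 (0.113 to 0.526).

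Cthrc1 codes for a secreted collagen triple helix repeat protein found in remodelling matrix (chr15:39076932-39087121, plus strand; ENSMUSG00000054196). Valve-gated barcodes measured 171, 95.3, 136 and 44.0 CPM from E12 to the adult. Endocardial barcodes measured 52.1, 29.7, 53.3 and 28.8 CPM, and coronary barcodes 28.8, 31.5, 54.2 and 5.15 CPM. The endocardial and coronary levels did not differ beyond counting error before adulthood, with a ratio of 0.983 (0.860 to 1.12) at P2, whereas the valve-gated level at P2 stood above both (122 to 152). The E12 valve-gated value rested on 6 UMIs, 5 of them in 1 barcode. Non-endothelial barcodes went from 228 CPM at E12 to 132, 105 and 3.89 CPM.

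Dcn and Lum code for decorin and lumican, small leucine-rich proteoglycans that bind collagen fibrils, and are neighbours on the plus strand of chromosome 10 (chr10:97479609-97518143, ENSMUSG00000019929, and chr10:97565128-97572703, ENSMUSG00000036446), with 46984 bases and 0 annotated genes between them. In endocardial barcodes Dcn measured 20.8 CPM at E12 (14.4 to 29.1) and then 93.0, 643 and 2365 CPM (2160 to 2583 in the adult). Valve-gated barcodes had 56.9, 57.2, 1168 and 5268 CPM, and non-endothelial barcodes 79.7, 561, 3762 and 7687 CPM. Decorin was thus higher at every later stage in endocardial and non-endothelial barcodes, and coronary barcodes followed from 0 UMIs at E12 (up to 12.3 CPM) to 35.7, 142 and 458 CPM. The 10 levels from 7687 to 93.0 CPM were ordered without ties, each but the last separated from the next by its interval.

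Lum had a flatter embryonic course. Endocardial barcodes measured 88.2 CPM (74.4 to 104) and 87.1 CPM before birth, 219 CPM at P2 and 913 CPM (788 to 1053) in adults. Valve-gated barcodes had 28.4, 76.3, 350 and 913 CPM, and coronary barcodes 74.1, 32.7, 51.8 and 98.2 CPM. The adult valve-gated and endocardial levels of lumican had a ratio of 1.00 (0.763 to 1.30), and the E12 endocardial and coronary levels one of 1.19 (0.727 to 2.07), neither beyond counting error. Non-endothelial barcodes were highest at each stage, with 318, 454, 1165 and 1404 CPM.

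Bgn codes for biglycan, the third small leucine-rich proteoglycan of the group (chrX:73483602-73495933, plus strand; ENSMUSG00000031375). Endocardial barcodes measured 241 CPM (218 to 266), then 463 and 485 CPM around birth and 1697 CPM (1524 to 1883) in adults. Its UMIs were found in 25.9%, 38.9%, 70.6% and 93.2% of endocardial barcodes, against 18.6%, 12.1%, 24.4% and 7.38% of coronary ones, at median depths of 1288.5, 1039, 4532 and 2614 UMIs against 1997, 1169.5, 4561.5 and 1485. Coronary levels stayed between 115 and 160 CPM over the 4 stages, but were 118, 92.1, 76.7 and 61.1 CPM in coronary barcodes without fibroblast transcripts. In contrast to Hapln1, Postn and Cthrc1, biglycan was lower in valve-gated than in endocardial barcodes from E15 on, with 191, 263 and 770 CPM in the valve gate. The ratios were 0.412 (0.25 to 0.64) at E15 and 0.454 (0.346 to 0.588) in the adult, both past 2-fold.

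Col1a1 codes for the main chain of type I collagen (chr11:94936224-94953042, plus strand; ENSMUSG00000001506). In endocardial barcodes it measured 119 and 159 CPM (141 to 178) in the embryo, 11.8 CPM (9.01 to 15.1) at P2 and none in the adult, which allows up to 14.4 CPM. Valve-gated barcodes had 1308, 76.3, 4.81 and 99.0 CPM, but 37 of the 46 UMIs at E12 came from 1 of the 21 barcodes. Non-endothelial barcodes were high at every stage, at 605, 1243, 1911 and 548 CPM. Col1a1 and Dcn therefore went in opposite directions in the endocardial series, with Col1a1 lower and Dcn higher at P2 and in adults than at E15. Col1a2, which codes for the other chain of type I collagen, did not share the fall at P2, with 144 CPM (127 to 162) at E15, 155 CPM (145 to 166) at P2 and 96.1 CPM (58.7 to 148) in the adult.

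**Figure D1:**
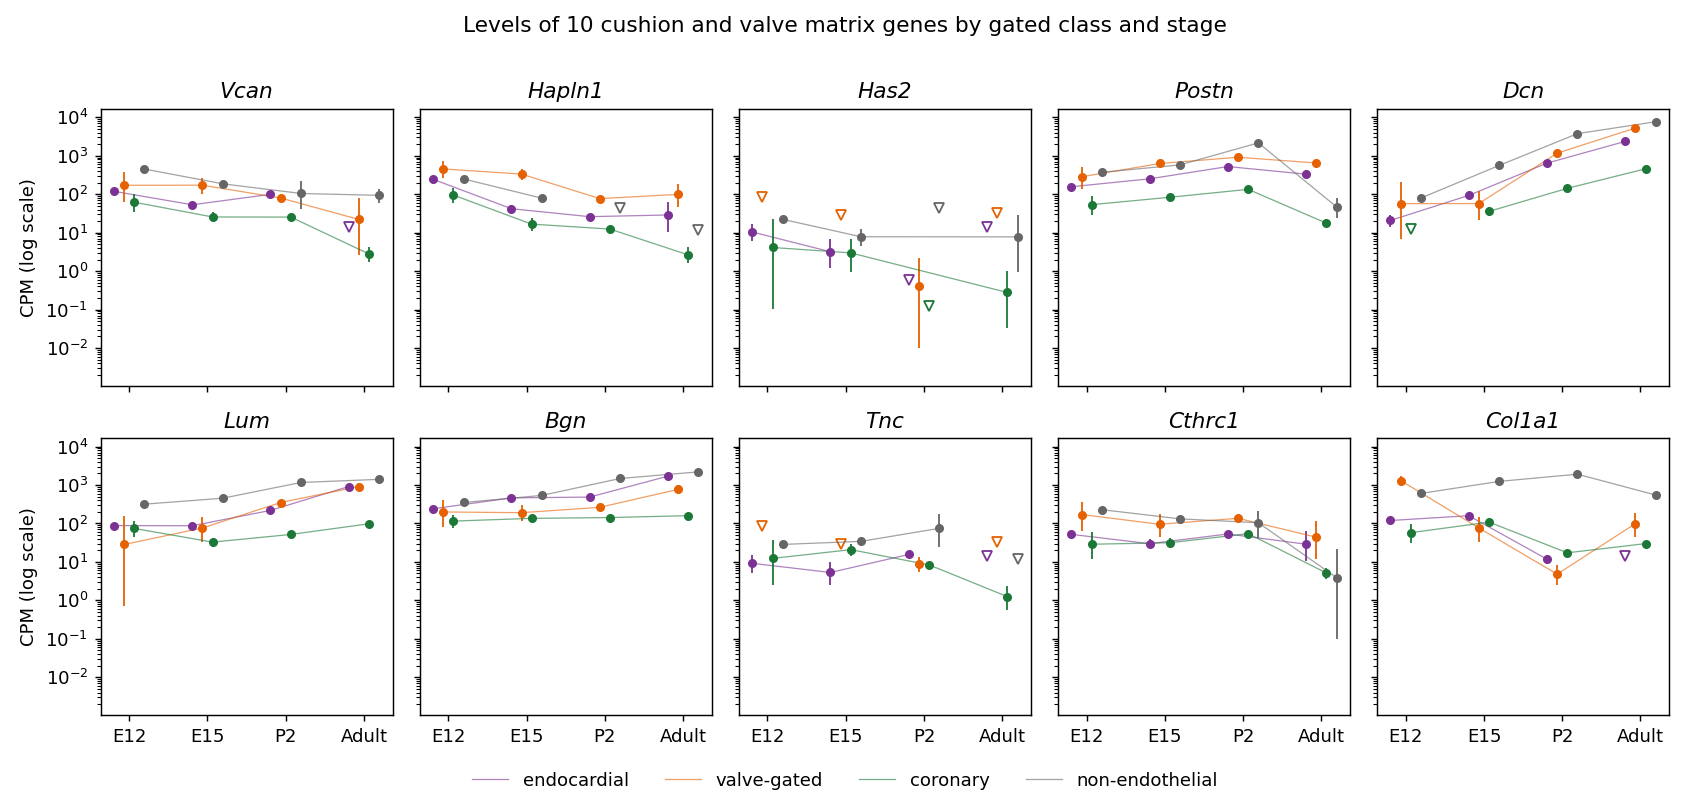
Level of each member in CPM (log axis) by stage for endocardial, valve-gated, coronary and non-endothelial barcodes; bars are exact 95% Poisson intervals, and open triangles mark the limit that 3 counts allow where a class had no UMI. In non-endothelial barcodes Vcan and Hapln1 were highest at E12, Postn at P2, and Dcn and Bgn in the adult, while adult Lum was not separated from its P2 level.

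The sequence before the start of transcription is shown for 3 members with different courses over the stages, Vcan (with no UMI in adult endocardial barcodes), Postn (highest at P2 over all endocardial barcodes) and Bgn (highest in adults). Of the 10 members, 5 had an entry among the RefSeq promoters used here (Vcan, Hapln1, Postn, Bgn and Tnc). Each window is the 250 bases before the RefSeq start nearest to the GENCODE start, 5′ to 3′ on the strand of the gene, in build GRCm38.p6. The windows are chr13:89742513-89742762 on the minus strand for Vcan, chr3:54360857-54361106 on the plus strand for Postn and chrX:73483351-73483600 on the plus strand for Bgn, and none overlapped a GENCODE exon. Capitals mark TATAAA and GGGCGG on either strand, the second read as CCGCCC when it lies on the other strand.
Vcan: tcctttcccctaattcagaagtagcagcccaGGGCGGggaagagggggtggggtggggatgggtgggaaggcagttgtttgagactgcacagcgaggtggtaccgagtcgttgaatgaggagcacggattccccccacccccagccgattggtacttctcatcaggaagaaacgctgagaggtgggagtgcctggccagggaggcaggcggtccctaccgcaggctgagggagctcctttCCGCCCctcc
Postn: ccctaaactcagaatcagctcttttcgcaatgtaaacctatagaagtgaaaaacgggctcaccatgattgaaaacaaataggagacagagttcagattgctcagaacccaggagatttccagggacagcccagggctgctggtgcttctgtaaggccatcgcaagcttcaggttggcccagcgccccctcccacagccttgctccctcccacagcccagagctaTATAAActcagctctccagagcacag
Bgn: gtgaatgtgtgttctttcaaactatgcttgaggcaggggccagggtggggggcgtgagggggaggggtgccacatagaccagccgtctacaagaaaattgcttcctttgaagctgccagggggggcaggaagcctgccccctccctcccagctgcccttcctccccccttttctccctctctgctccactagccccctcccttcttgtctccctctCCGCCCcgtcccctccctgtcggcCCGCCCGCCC

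The Postn window held TATAAA 1 time, starting 26 bases before the start of transcription, and no GGGCGG. The Vcan and Bgn windows held no TATAAA and 2 and 3 matches of GGGCGG, the last 2 of Bgn overlapping. Of 32851 RefSeq windows of the same length, 12.4% held TATAAA and 32.7% held GGGCGG on either strand. The E-box letters CANNTG, found in 66.2% of windows, occurred 1 time each in Vcan and Bgn and not in Postn. The SOX core letters AACAAT were in 9.42% of windows but in none of the 3 shown. The TEAD core letters GGAATG were in 12.6% of windows, and again in none of these. The SMAD core letters CAGAC were in 42.2% and likewise not in these. GC content was 62.4%, 52% and 64.4% for Vcan, Postn and Bgn.

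Which members set valve-gated barcodes apart from coronary ones of the same library was asked next. A member counted as higher when log2(CPM + 10) differed by at least 1, that is 2-fold, among genes with at least 20 UMIs in the 2 classes together. At E12, 4 of the 5 members compared were higher in valve-gated barcodes, where 5.69% of all 1809 genes compared were. At E15 it was 5 of 9 against 6.46% of all genes, at P2 6 of 9 against 2.32%, and in the adult 8 of 8 against 8.4%. Vcan, Hapln1 and Postn were higher at all 4 stages. Postn had ratios of 5.31 (2.09 to 13.1), 7.55 (5.55 to 10.2), 6.84 (6.48 to 7.22) and 36.7 (26.5 to 50.4). Hapln1 had ratios of 4.80, 20.0 (11.8 to 34.2), 6.21 and 37.4 (14.9 to 86.9). Vcan had ratios of 2.76, 6.70, 3.14 and 7.91, of which the first and the last had intervals that included 1. Dcn passed the fold at P2, with 8.22 (7.82 to 8.64), and in the adult. No member compared was lower by 2-fold at any stage, where 16.4%, 5.34%, 1.52% and 5.35% of all genes were. The limit of 20 UMIs shaped the E12 counts. Lum, at 28.4 CPM in valve-gated and 74.1 CPM in coronary barcodes, had 1 and 18 UMIs and was not compared. Vcan, Postn and Col1a1 had 15, 13 and 14 coronary UMIs and reached the limit only with their 6, 10 and 46 valve-gated ones. The E12 count was 1 when the barcode with most UMIs of each member was left out, and the counts were 0, 1 and 1 for E12, E15 and the adult when barcodes were thinned to 500 UMIs before gating, which left 9, 16 and 3 valve-gated barcodes. The number of members still compared and the share of all genes in these settings are not given.

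Endocardial barcodes differed from coronary ones by a set that overlapped with that of the valve gate, with Postn in both at all 4 stages. At E12, 3 of 8 members were higher (Hapln1, Postn and Bgn), where 6.26% of all genes were. The count was 4 of 9 at E15 against 3.71% of all genes, 5 of 9 at P2 against 2.47%, and 6 of 8 in the adult against 6.68%. Postn and Bgn were higher at all 4 stages. Biglycan had ratios of 2.09 (1.42 to 3.19), 3.41 (2.94 to 3.96), 3.41 (3.24 to 3.59) and 10.6 (9.41 to 12). Dcn and Lum joined at E15, with ratios of 2.60 and 2.66, and reached 5.17 (4.69 to 5.68) and 9.30 (7.88 to 10.9) in the adult. Hapln1 and Cthrc1 were higher in the adult too, on 6 endocardial UMIs each. Of those of Hapln1, 5 were in 1 barcode, and its 19 coronary UMIs reached the limit of 20 only with them. Only Tnc was lower, at E15, so that 0 of 8, 1 of 9, 0 of 9 and 0 of 8 members were lower, against 2.34%, 2.84%, 3.2% and 6.5% of all genes. Vcan passed the fold only at P2, at 3.90 (3.46 to 4.40), although its E12 and E15 ratios also lay above 1. At E12 Bgn lay just past the fold, at 1.00 on the log2 scale. Vcan, Postn, Dcn, Lum, Cthrc1 and Col1a1 had under 20 coronary UMIs at E12 and reached the limit only with their endocardial ones. Dcn, with no coronary UMI there, could not be called lower. The E12 levels stand beside those of barcodes under the cutoff for called barcodes, in which 9 of the 10 members were above their endocardial level beyond counting error, such as Vcan at 406 CPM, Lum at 315 CPM and Col1a1 at 491 CPM, and Hapln1 (233 CPM) was not separated from it. The part of such RNA in the E12 levels was not tested. Over the 4 libraries Hapln1, Postn, Dcn, Lum and Bgn were higher in endocardial than in coronary barcodes in each one, that is 5 of the 8 members compared in all of them, with the smallest p that the exact permutation test allows (0.125). This count is of direction only. The E12 difference of Lum was within counting error, and the adult one of Hapln1 rested on 6 endocardial UMIs. No such share was taken over all genes, so the count has no background beside it. The mean log2 difference was 1.93 ± 0.99 (SD, n = 4 libraries of different stages) for Bgn and 1.14 ± 0.40 for Hapln1.

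Valve-gated and endocardial barcodes were then compared. Hapln1 and Cthrc1 were higher in valve-gated barcodes at both E15 and P2, by 7.95 (5.18 to 12) and 2.95 (2.36 to 3.71) for Hapln1 and by 3.21 (1.46 to 6.34) and 2.56 (2.18 to 3.01) for Cthrc1. In all, 3 of 8 members were higher at E12, 4 of 8 at E15, 2 of 9 at P2 and 1 of 4 in the adult. The same held for 8.79%, 3.97%, 1.14% and 5.7% of all genes. Vcan and Postn passed the fold only at E15, at 3.23 and 2.50. Lower in valve-gated barcodes were Lum at E12, with 1 UMI in the valve gate, and Bgn at E15 and in the adult, that is 1 of 8, 1 of 8 and 1 of 4 members, against 3.58%, 4.77% and 9.9% of all genes. At P2 no member was lower, against 0.264% of all genes.

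**Figure D2:**
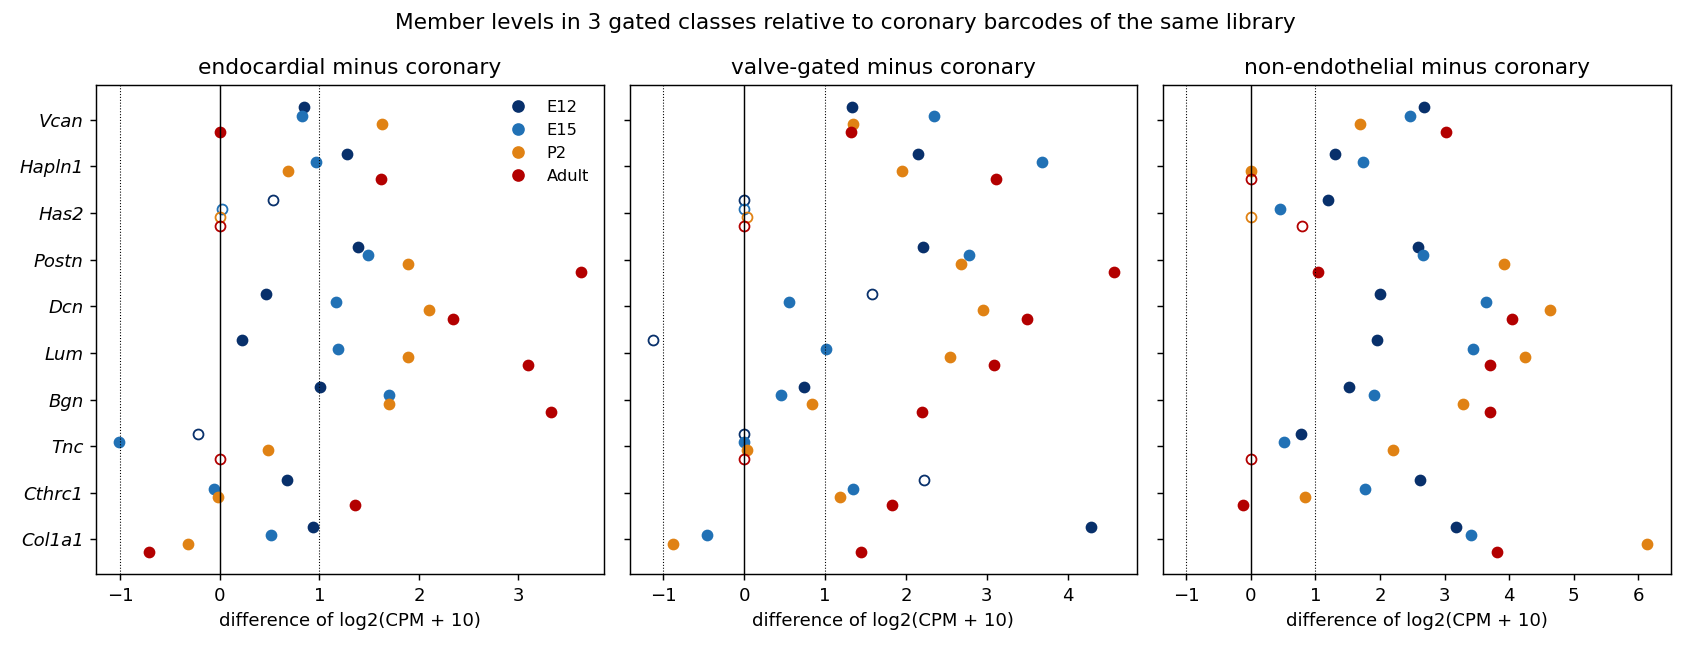
Difference of log2(CPM + 10) between endocardial, valve-gated or non-endothelial barcodes and coronary barcodes of the same library for each member; dotted lines mark 2-fold, open points had under 20 UMIs in the 2 classes, and a class with no UMI was set to its limit of 3 counts and could only be lower. Postn was past 2-fold in all panels at every stage, and Bgn was past 2-fold at every stage in the endocardial panel but only in the adult in the valve-gated panel.

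Non-endothelial barcodes, which also held endothelial markers, held more of nearly every member. Against coronary barcodes, 9 of 10 members were higher at E12, 8 of 10 at E15, 7 of 9 at P2 and 6 of 7 in the adult, where 6.2%, 5.12%, 9.29% and 7.03% of all genes were. None was lower, where 3.42%, 2.2%, 5.14% and 6.28% of all genes were. At E12 all members but Hapln1 and Bgn had under 20 coronary UMIs. They reached the limit of 20 only with their non-endothelial ones. With 10 CPM added, a member under 10 CPM in coronary barcodes could not be called lower, such as Dcn and Has2 at E12. Part of these counts was thus set by the limits. Col1a1 had ratios of 10.5 (6.24 to 19.2), 11.5 (9.86 to 13.4), 111 (90.1 to 135) and 18.3 (14.7 to 22.8). The P2 class was small and its ratios rested on few barcodes, 7 of which held all 128 Col1a1 UMIs. Fibroblast markers were higher in the class too, with all 7 detected at each stage. They summed to 1462, 2145, 10078 and 28907 CPM by stage, against 119, 228, 184 and 1048 CPM in coronary barcodes. Of these UMIs, Col1a2 and Col3a1 held 2210 and 3033 of 6059 at E12 but 213 and 329 of 7431 in the adult. The sum was thus mostly of different genes at these stages, and its course was shared by some members only. The sum was highest in the adult, as were Dcn, Lum and Bgn. In contrast, Vcan, Hapln1 and Cthrc1 were highest at E12 and Postn, Tnc and Col1a1 at P2. Lum in the adult was not separated from P2 beyond counting error. Nor was Tnc at P2, with 5 UMIs in 2 of 13 barcodes, from E15. Has2 was not ranked, since no UMI at P2 allows up to 44.8 CPM, above its 22.2 CPM at E12.

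To see which non-endothelial barcodes carried the members, these were split by fixed markers. At E12, 992 barcodes with at least 2 UMIs of mesenchymal genes (such as Sox9, Twist1, Prrx1 and Pdgfra) held 71.0% of the Vcan UMIs of the class, 70.7% of Has2, 70.5% of Postn, 68.4% of Cthrc1 and 64.4% of Hapln1. These were 33.1% of the barcodes of the class, and deeper, at a median of 1532.5 UMIs against 1065.5 in those that no gate took. Per UMI of all genes, the 992 barcodes measured 798 CPM Vcan (756 to 842), 401 CPM Hapln1 and 653 CPM Postn, against 277, 134 and 223 CPM in 207 mural-gated barcodes, 218, 156 and 188 CPM in the 1710 barcodes that no gate took, and 84.0, 33.6 and 50.4 CPM in 24 leukocyte-gated ones. The cushion set was thus highest in the barcodes gated on mesenchymal genes but was found in the others too. Dcn and Col1a1 were placed differently. They were highest in the 62 epicardium-gated barcodes of E12, at 613 CPM (474 to 781) and 1348 CPM (1137 to 1586), against 78.8 and 643 CPM in the mesenchyme-gated ones. At E15, by contrast, Dcn was 1025 CPM (721 to 1412) in 22 epicardium-gated and 897 CPM (808 to 992) in 268 mesenchyme-gated barcodes, which did not differ beyond counting error. In the adult, 18 mesenchyme-gated barcodes held 1195 of the 1976 Dcn UMIs of the class and measured 2892 CPM Lum and 4058 CPM Bgn, whereas Hapln1 and Cthrc1 had no UMI there.

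**Figure D3:**
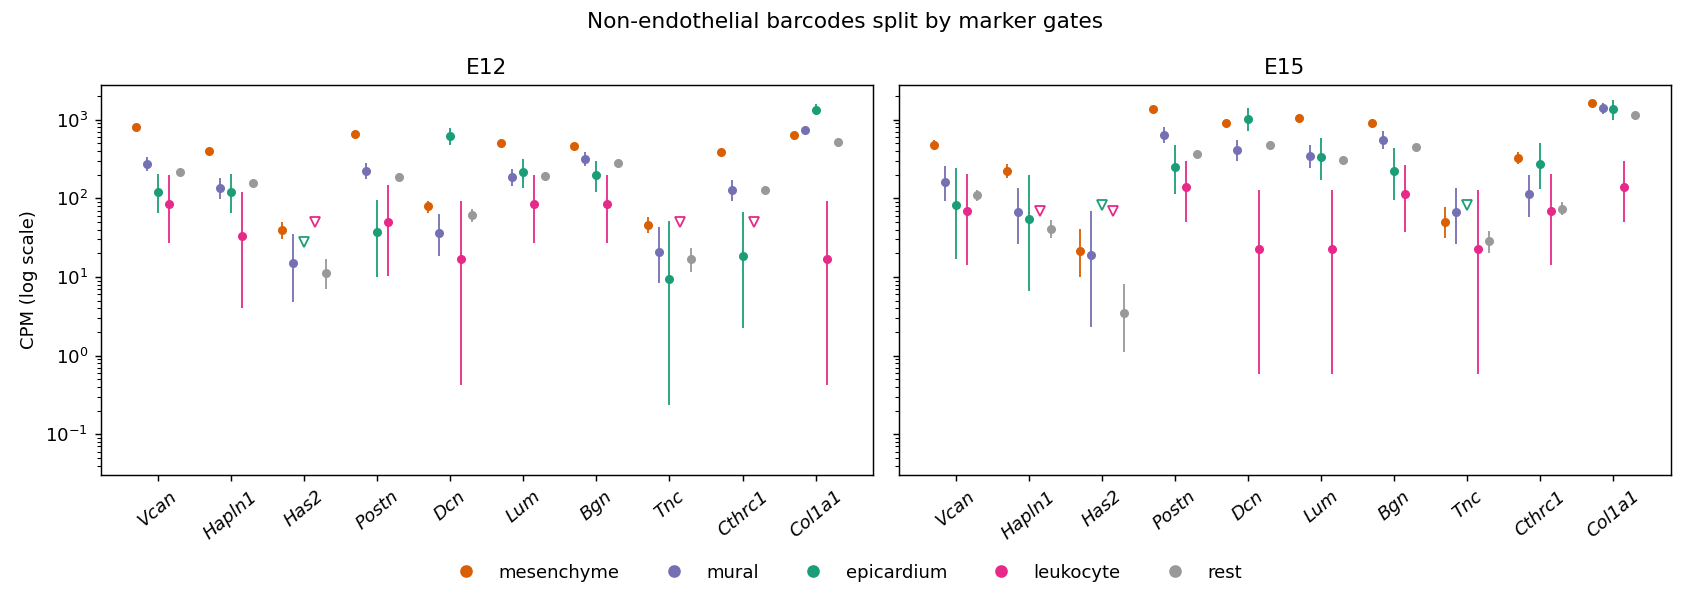
Level of each member in CPM (log axis) in non-endothelial barcodes of E12 and E15, split by marker gates; bars are exact 95% Poisson intervals and open triangles the limit that 3 counts allow. At E12 Vcan, Hapln1, Has2, Postn, Lum, Bgn, Tnc and Cthrc1 were highest in mesenchyme-gated barcodes, whereas Dcn and Col1a1 were highest in epicardium-gated ones.

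Stages were next compared within a class. Between E12 and the adult, 3 of 8 members were lower in endocardial barcodes (Vcan, Hapln1 and Col1a1) and 4 were higher (Postn, Dcn, Lum and Bgn), where 9.6% and 14.5% of all genes were lower and higher. Of the higher members Dcn differed most, by 114-fold (80.1 to 166), followed by Lum at 10.3 (8.29 to 12.9), Bgn at 7.05 (6.09 to 8.16) and Postn at 2.12 (1.60 to 2.78). Of the lower ones, Hapln1 had a ratio of 0.118 (0.0430 to 0.259), and Vcan and Col1a1, with no adult UMI, had ratios of at most 0.151. The steps were not alike. From E12 to E15 Hapln1 had a ratio of 0.172 (0.133 to 0.219) and Vcan of 0.447, so that 2 of 10 members were lower against 0.48% of all genes, while Dcn alone was higher, against 0.81%. From E15 to P2 Col1a1 was lower, at 0.0741 (0.0553 to 0.0979), and Postn, Dcn and Lum were higher, that is 1 and 3 of 9 members against 1.6% and 3.92% of all genes. From P2 to the adult, Vcan was lower and Dcn, Lum and Bgn were higher, by 3.68, 4.18 and 3.50, that is 1 and 3 of 9 members against 4.61% and 4.3%.

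The steps of the other classes were compared likewise. In valve-gated barcodes Postn was higher and Col1a1 lower at E15 than at E12, 1 of 5 members each, against 12.7% and 3.34% of all genes. From E15 to P2, Dcn had a ratio of 20.4 (9.37 to 55.7) and Lum of 4.59, whereas Vcan, Hapln1 and Col1a1 were lower, that is 2 and 3 of 9 members against 10.3% and 4.02%. From P2 to the adult, Dcn, Lum, Bgn and Col1a1 were higher and Vcan and Cthrc1 lower, 4 and 2 of 9 against 5.97% and 6.43%. In coronary barcodes Dcn was higher at each step, 1 of 9 members each time, against 3.93%, 4.31% and 3.73% of all genes. In coronary barcodes without fibroblast transcripts it had 0 UMIs at E12, 13 UMIs (9.07 CPM) at E15, 41.3 CPM at P2 and 65.5 CPM in the adult, where the last step was under 2-fold. Over all coronary barcodes, Vcan and Hapln1 were lower at E15 (2 of 9, against 1.68%) and Col1a1 at P2 (1 of 9, against 1.35%). Vcan, Postn and Cthrc1 were lower in the adult (3 of 9, against 3.77%). In non-endothelial barcodes Dcn was likewise higher at each step, by 7.05, 6.70 and 2.04.

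The other classes shared part of the course between E12 and the adult. In coronary barcodes 4 of 8 members were lower in the adult than at E12 (Vcan, Hapln1, Postn and Cthrc1) against 8.04% of all genes, and 1, Dcn, was higher against 15.5%. Coronary Postn was 0.132 (0.110 to 0.158) of its P2 level in the adult. In valve-gated barcodes 2 of 6 members were lower (Hapln1 and Col1a1, 0 of them without the highest barcode of each member) and 4 higher (Postn, Dcn, Lum and Bgn), against 16.3% and 33.9% of all genes. In non-endothelial barcodes 4 of 10 were lower (Vcan, Hapln1, Postn and Cthrc1) and 3 higher (Dcn, Lum and Bgn), against 9.12% and 13.2%. Hapln1 was thus lower and Dcn higher in every class in which they were compared, whereas adult Postn lay above its E12 level in endocardial and valve-gated barcodes and below it in the others.

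Fibroblast markers were found in endocardial and coronary barcodes. In endocardial barcodes the 7 markers summed to 443, 415, 498 and 303 CPM by stage, and Tcf21, Dpt and Ddr2 were at 0 in the adult. Most of these UMIs were of 2 collagens. Col1a2 held 193, 271, 805 and 20 and Col3a1 445, 416, 1449 and 16 of the 723, 781, 2579 and 63 UMIs. The course of the sum was thus largely that of these collagens, and the other markers were not summed apart. In coronary barcodes all 7 markers summed to 119, 228, 184 and 1048 CPM, highest in the adult. There Col1a2 and Col3a1 held 280 and 454 of the 7533 adult UMIs, so that the adult sum was mostly of other markers. Levels were also taken, as an alternative chosen after the data had been seen, over barcodes with no UMI of Col1a2, Col3a1, Pdgfra, Tcf21 and Dpt. This kept 776, 1252, 410 and 50 of the 1120, 1570, 1082 and 74 endocardial barcodes, whose median depths before the filter were 1288.5, 1039, 4532 and 2614 UMIs. A deeper barcode is more likely to hold such a UMI, so the filter was not equal between stages. Col1a2 and Col3a1 are matrix genes too, higher by 2-fold in endocardial than in coronary barcodes at E12 and P2. The filter therefore also left out barcodes for their matrix transcripts, and lower levels in the kept ones are not a measure of fibroblast RNA. Bgn measured 237, 443, 440 and 1589 CPM in the kept barcodes (1378 to 1824 in the adult), against 241, 463, 485 and 1697 CPM in all endocardial barcodes. Lum measured 23.9, 22.0, 151 and 787 CPM and Dcn 1.99, 20.6, 265 and 1204 CPM (1021 to 1410), so both were lower than in all endocardial barcodes but still highest in the adult. Postn measured 92.5, 183, 301 and 252 CPM, and the intervals of its P2 and adult levels overlapped (275 to 328 and 172 to 355). Vcan measured 46.7 CPM (34.3 to 62.2) at E12, 27.2 CPM at E15 and 78.1 CPM (65.5 to 92.5) at P2, so that P2 and not E12 was highest in this set. Col1a1 was at 28.8 and 19.8 CPM in the embryo and had no UMI after birth. In coronary barcodes kept by the same rule, adult Dcn was 65.5 CPM (59.5 to 72.0) instead of 458 CPM, and P2 Postn 38.3 CPM instead of 134 CPM and no longer above its E12 level of 39.4 CPM.

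**Figure D4:**
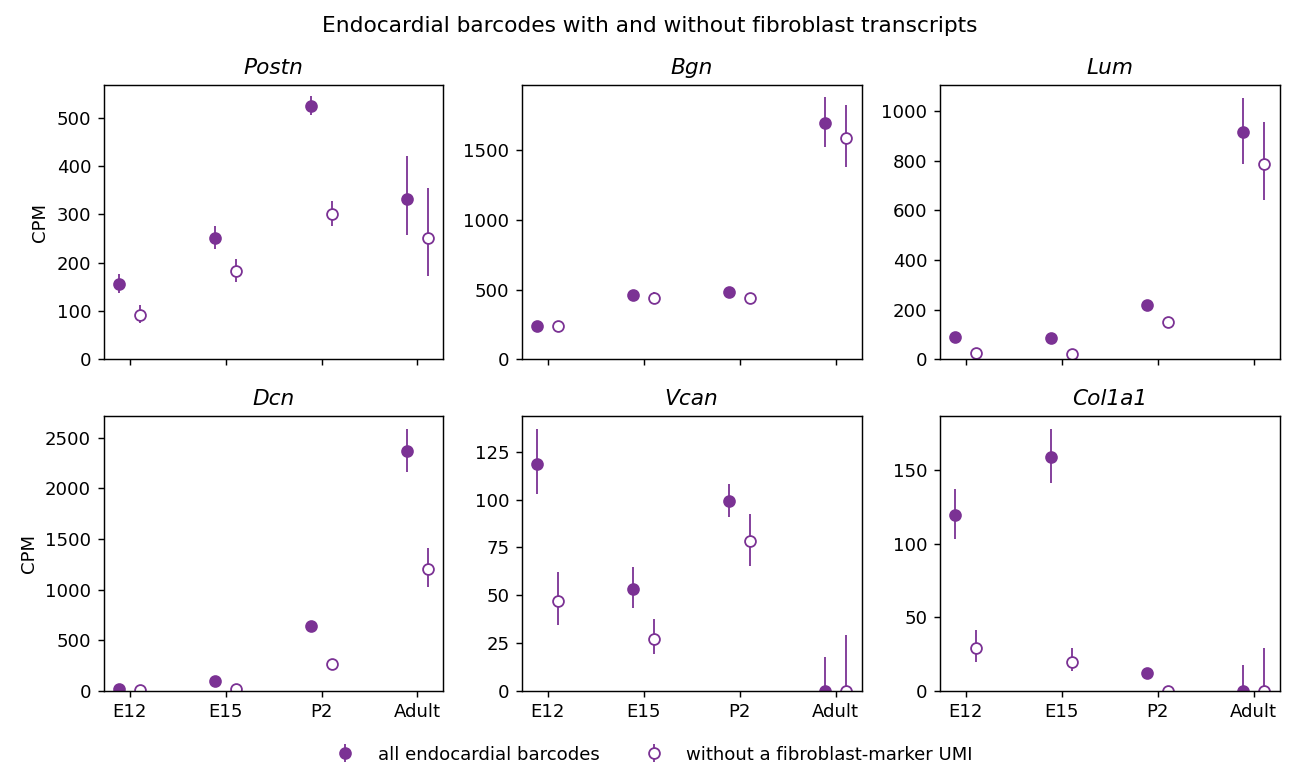
Level in CPM (linear axes from 0) of 6 members in all endocardial barcodes (filled) and in those without a UMI of 5 fibroblast markers (open), by stage; bars are exact 95% Poisson intervals. Bgn was similar in both sets, Dcn and Lum were highest in the adult in either set, Vcan was highest at P2 in the restricted set, and Col1a1 had no UMI after birth in the restricted set. The restriction depends on depth, and P2 was the deepest library. Col1a2 and Col3a1, matrix genes themselves, are among the 5 markers.

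The numbers of UMIs of Dcn per UMI of Col1a1 gave another view of the same classes. In E12 and E15 this ratio was 0.174 (0.117 to 0.252) and 0.585 (0.483 to 0.708) in endocardial barcodes, near the 0.132 and 0.452 of the non-endothelial ones. At P2 it was 54.6 (42.4 to 71.6) in endocardial, 243 (139 to 471) in valve-gated, 8.24 in coronary and 1.97 (1.59 to 2.45) in non-endothelial barcodes. Few barcodes lay behind these P2 ratios. In the non-endothelial class 4 mesenchyme-gated barcodes held 226 of the 252 Dcn and 120 of the 128 Col1a1 UMIs. In the endocardial class 1 barcode held 31 of the 61 Col1a1 UMIs, and the valve-gated class had 12 Col1a1 UMIs. The contrast was smaller with other collagens. Dcn per UMI of Col1a2 was 4.14 (3.83 to 4.48) in endocardial, 9.08 in valve-gated and 1.71 (1.39 to 2.12) in non-endothelial barcodes at P2, and Dcn per UMI of Col3a1 was 2.30 (2.16 to 2.45), 4.87 and 0.621 (0.528 to 0.728). For the adult, 492 Dcn and 0 Col1a1 UMIs in endocardial barcodes put the ratio above 133, against 14.0 (11.8 to 16.7) in non-endothelial ones. The part of fibroblast RNA in the endocardial, valve-gated and coronary levels was not tested further.

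The valve gate was treated in the same way. Without barcodes with a UMI of Ccl21a, Mmrn1, Lyve1 or Flt4, 273 of 427 valve-gated P2 barcodes were left and Postn, Dcn and Hapln1 measured 1090, 1506 and 100.5 CPM, each above its level in all valve-gated barcodes. Without the fibroblast markers, 144 P2 and 10 adult barcodes were left, with P2 levels of 355 CPM Postn, 314 CPM Dcn and 184 CPM Cthrc1 and adult levels of 409 CPM Postn and 646 CPM Dcn. Cthrc1 was the member whose P2 valve-gated level was not lower in that set, 184 (156 to 215) against 136 CPM, whereas Postn and Dcn were more than 2-fold lower. Adult Dcn, higher in all valve-gated than in all endocardial barcodes (5268 against 2365 CPM), was lower in this set (646 against 1204 CPM). All 7 fibroblast markers were detected in adult valve-gated barcodes, and the part of fibroblast RNA in their Dcn level of 5268 CPM was not tested. Here too the filter used Col1a2 and Col3a1, which are matrix genes themselves.

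Depth was set equal by thinning each barcode to 500 UMIs, which left out at most 66 barcodes of an endocardial, valve-gated or coronary class. The classes were those gated at full depth, so membership still depended on the depth before thinning. Bgn was then found in 9.92%, 19.5%, 18.1% and 50% (38.1% to 61.9%) of endocardial barcodes in order of stage, against 2.65%, 5.22%, 4.94% and 3.34% of coronary ones. The jump between E15 and P2 in the shares without thinning (38.9% and 70.6%) was therefore not seen at equal depth. Dcn was found in 0.902%, 1.92%, 14.6% and 47.3% of endocardial barcodes and Postn in 4.78%, 10.5%, 17.7% and 16.2%. Hapln1 was found in 9.65% of E12 endocardial barcodes (7.97% to 11.5%) and 1.72% of E15 ones, and in 15.4% of valve-gated barcodes at E15 and 4.68% at P2. Col1a1 was found in 0.185% of P2 endocardial barcodes, against 0.305% of coronary ones, so that it was not above the coronary share there.

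**Figure D5:**
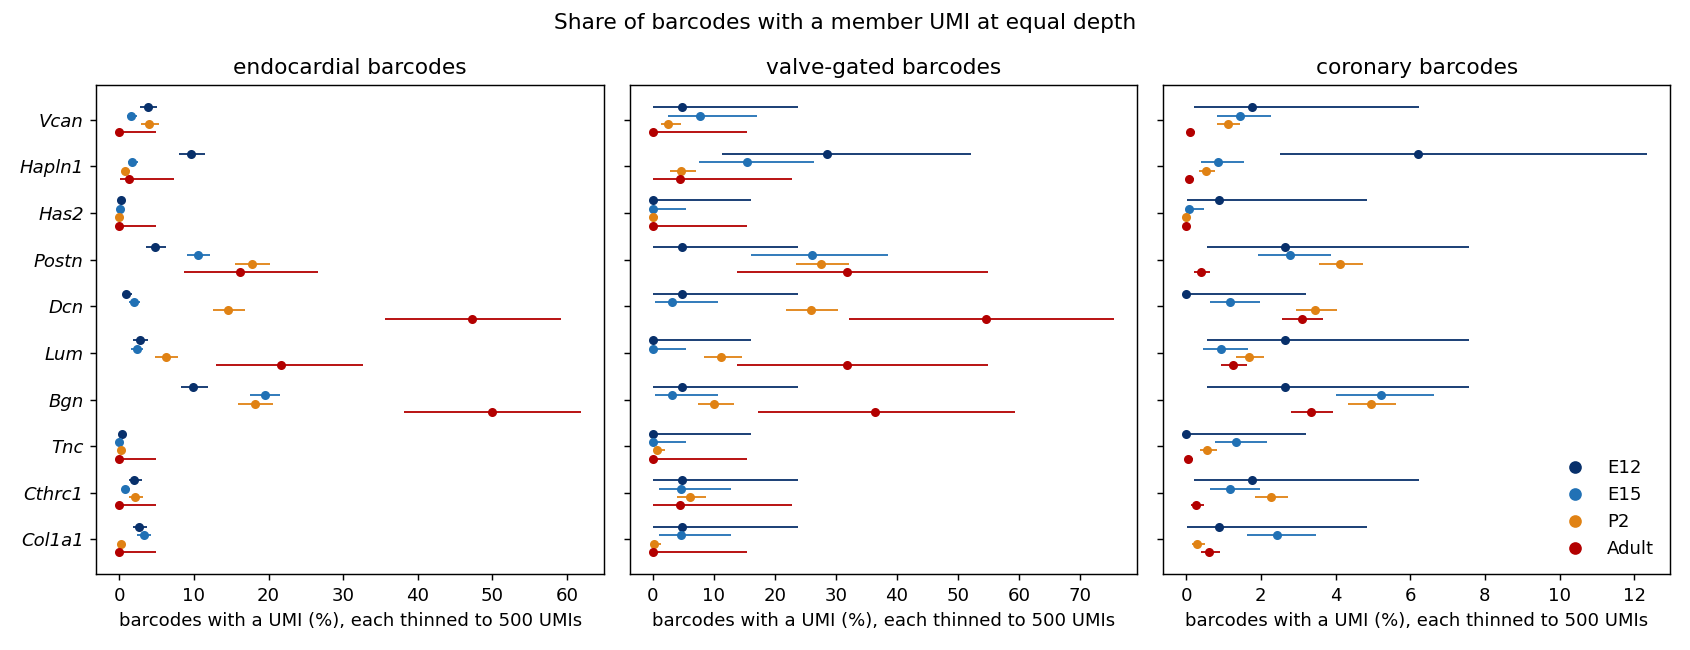
Share of barcodes with at least 1 UMI of each member, in percent, after thinning each barcode to 500 UMIs, in endocardial, valve-gated and coronary barcodes gated before thinning (each panel has its own scale); bars are exact 95% binomial intervals. Bgn and Dcn reached 50% and 47.3% of adult endocardial barcodes, and no member exceeded 10% of coronary barcodes.

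Members were often found in the same barcodes. At least 3 members were detected in 9.73%, 6.18%, 38.7% and 47.3% of endocardial barcodes in order of stage, against 4.42%, 2.95%, 9.68% and 1.84% of coronary ones, counted without thinning. At E12, 44 endocardial barcodes had both Vcan and Hapln1 UMIs, where independence would give 24.7. At P2, 144 had both Dcn and Lum, where independence would give 69.6, and these were 74.2% of the barcodes with Lum and 37.1% of those with Dcn. Vcan and Postn, by contrast, were together in 99 P2 endocardial barcodes, near the 110 of independence. Barcodes of a class differ in depth and type, and the part of either in these counts was not tested.

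Other genes of the same networks were taken from lists. Of 19 further genes of the versican and hyaluronan network, 2 of 8 compared at E12, 2 of 9 at E15, 1 of 13 at P2 and 3 of 11 in the adult were higher by 2-fold in endocardial than in coronary barcodes, where 6.26%, 3.71%, 2.47% and 6.68% of all genes were. Adamts9 was lower in the adult, 1 of 11 genes, where 6.5% of all genes were. Tmem2, a cell surface protein linked to hyaluronan breakdown, was among the higher genes at all 4 stages, with 366, 323, 330 and 447 CPM in endocardial and 136, 69.6, 68.9 and 37.1 CPM in coronary barcodes. It was lower in valve-gated than in endocardial barcodes by 2-fold at E12, E15 and in the adult, unlike Vcan and Hapln1. In the valve gate 0 of 2, 0 of 9, 1 of 13 and 4 of 11 genes of the network were higher than in coronary barcodes, against 5.69%, 6.46%, 2.32% and 8.4% of all genes, and 2 (Adamts1 and Adamts9) were lower in the adult, against 5.35%. The median log2 difference of the network between endocardial and coronary barcodes was 0.46, 0.44, -0.03 and 0 by stage, where all genes had 0.11, 0.08, 0.04 and 0. Among 10 other small leucine-rich proteoglycans, Prelp was higher in adult endocardial (91.3 CPM) than coronary (29.2 CPM) barcodes, 1 of 5 genes compared, while 0 of 1 at E15 and 0 of 4 at P2 passed the fold. The median of this list was 0.63, -0.28 and 0 at E15, at P2 and for adults.

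Of 21 collagens and collagen-processing genes, 3 of 14, 3 of 18, 7 of 18 and 3 of 17 were higher in endocardial than in coronary barcodes from E12 to the adult, against the same 6.26%, 3.71%, 2.47% and 6.68% of all genes. The medians were 0.19, 0.38, 0.57 and 0.01, where all genes had 0.11, 0.08, 0.04 and 0. In either postnatal library 2 of these genes (Plod1 and Pcolce) were lower, against 3.2% and 6.5% of all genes. Col5a2, a chain of the minor fibrillar type V collagen, was higher at all 4 stages, at 457 against 119 CPM at P2. Unlike Col1a1, Col3a1 and Col1a2 kept 280 and 155 CPM in P2 endocardial barcodes. Of 13 valve glycoproteins, Fn1 (fibronectin) and Mgp (matrix Gla protein, an inhibitor of calcification) were higher in endocardial barcodes at all 4 stages, among 5 of 10, 4 of 11, 3 of 12 and 5 of 12 genes, to be read against the same shares of all genes. By stage 1, 2, 1 and 2 of the glycoproteins were lower, against 2.34%, 2.84%, 3.2% and 6.5% of all genes. Their medians were 0.79, 0.48, 0.42 and 0.55. Mgp measured 305, 1411, 1710 and 5277 CPM in endocardial barcodes, an order of stages shared with Dcn. Of 16 cushion mesenchyme factors, 5 of 12, 4 of 13, 1 of 15 and 2 of 10 were higher in endocardial barcodes, beside the same shares of all genes, with Tgfb2, a growth factor of cushion invasion, among them at each stage. Of these factors 1, 2, 1 and 0 were lower by stage, against 2.34%, 2.84%, 3.2% and 6.5% of all genes, and the medians were 0.91, 0.24, -0.06 and 0. Pdgfra, a receptor of mesenchymal and fibroblast cells, was higher in valve-gated than coronary barcodes at E15, P2 and in the adult, at 276, 115 and 143 CPM against 11.3, 11.5 and 7.79 CPM.

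The genes with the most similar course over the 16 combinations of class and stage were looked for among 5955 genes, as Pearson's r of log2(CPM + 10). The combinations share libraries and barcodes, so r is a description. Nearest to Bgn were Ppp1r14a (r = 0.96), G0s2 and Ndrg2 (0.88 each), and nearest to Dcn were Pdgfrl (0.94), Rnft1 and Lgmn (0.93 each). Col1a1 was nearest to Prrx1 (0.94), Sfrp1 (0.92) and Sfrp2 (0.91), and Postn to Hspb11 (0.92), P3h4 (0.89) and Rcn1 (0.88). Lum was nearest to Ptgis (0.92), Ndrg2 (0.91) and Itih5 (0.89), and Hapln1 to Cd24a (0.92), Bex2 (0.91) and Zfp414 (0.88). Vcan was nearest to Serf1 (0.89), Deb1 and Ftl1 (0.87 each), and Cthrc1 to Tmem167 (0.88), Tbc1d7 (0.85) and Ssr3 (0.84). The sparse Has2 and Tnc were nearest to Car3 (0.94), Cnn1 and Apela, and to Arhgef17 (0.84), Bzw2 and Arxes1. Among the members themselves, Lum and Bgn (0.90), Dcn and Lum (0.87) and Dcn and Bgn (0.82) were most alike, and Hapln1 and Dcn least (-0.54).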

How the data were processed

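The authors sorted CD31+/CD45- cells, made 10x Genomics v2 3′ libraries and, per the labels, processed them with Cell Ranger 2.2 and the mm10 reference. They deposited raw UMI counts for each gene in each barcode, with no normalization. The E15, P2 and adult files hold called barcodes only. The E12 file holds all 737280, of which 5732 with at least 452 UMIs were kept here, the cutoff being a share of 0.1 of the 0.99 quantile of the 3000 largest barcodes. The called libraries held 8122358, 7079759, 29645059 and 7650091 UMIs.

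UMIs were summed per class and divided by all UMIs of the class. Sums have exact Poisson, shares exact binomial and ratios exact conditional binomial 95% intervals, which cover counting error only. A sum of 0 was given the limit of 3 counts. Genes were called at a difference of 1 in log2(CPM + 10) with at least 20 UMIs in the 2 groups together. With 1 library per stage no p-value was taken between stages. Differences between classes were averaged over the 4 libraries in a two-sided exact sign permutation test, for members compared in all 4. In the thinned alternative of the comparisons, barcodes were gated after being reduced to 500 UMIs. The thinned shares of barcodes instead kept the classes gated at full depth. Doublets were not removed in the main analysis. Barcodes with a Scrublet score over 0.15 at an expected 0.8% per 1000 barcodes numbered 351, 574, 254 and 103 and were removed in an alternative, as were barcodes past the upper limits of the study (163, 182, 163 and 155). The order of gates in non-endothelial barcodes was leukocyte, epicardium, mural and mesenchyme, each with at least 2 UMIs.

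The members and the gene lists were chosen with earlier results of these data known. The text names all 10 members, up to 4 genes of each list with most UMIs in valve-gated barcodes, and the 3 genes most like each member (at least 200 UMIs and a highest level of at least 50 CPM). Other genes that passed the fold in a list (Adamts9, Plod1, Pcolce) and genes of the marker lists are named beyond this rule. Positions are from GENCODE M21 and promoter sequences from RefSeq. Python 3.11.15, numpy 2.4.6, scipy 1.17.1, scanpy 1.11.5 and matplotlib 3.10.9 were used. The sums, ratios and calls were tested on simulated data first.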

Additional observations from a re-analysis of the deposited data

Results flagged for a closer look

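The E12 file also holds 158274 barcodes with UMIs below the cutoff, which no comparison used. They are listed because members were found there above the limit of 3 counts. All 10 members were found in them, with 1033891 UMIs of all genes in total. Vcan measured 406 CPM, Hapln1 233 CPM, Has2 21.3 CPM, Postn 319 CPM, Dcn 103 CPM, Lum 315 CPM, Bgn 292 CPM, Tnc 30.0 CPM, Cthrc1 116 CPM and Col1a1 491 CPM. Each value lay above that of the E12 coronary barcodes, though the intervals of Has2 and Tnc overlapped. Beyond counting error, 9 of the 10 members lay above their level in E12 endocardial barcodes, by ratios of 1.21 (1.04 to 1.41) for Bgn to 4.92 (3.32 to 7.47) for Dcn, and Hapln1 was not separated from it, at 0.953 (0.809 to 1.12). Against E12 non-endothelial barcodes, 1 member (Dcn) lay above, 4 (Postn, Bgn, Cthrc1 and Col1a1) lay below and 5 were not separated. In barcodes of fewer than 100 UMIs Vcan measured 391 CPM, Col1a1 482 CPM and Dcn 135 CPM. An alternative took 10% of each E12 class sum as RNA of this composition, and its part in the E12 levels was not tested further.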

How the results depend on the processing

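Over all members, comparisons and settings, 2056 of 2218 alternatives for a log2 difference kept its direction and side of 2-fold, 158 moved and 4 turned. The turned ones were Cthrc1 between valve-gated and endocardial barcodes at E12, at -0.42 without the highest barcode of each member and -0.48 without lymphatic UMIs, and adult Dcn between the same classes, at -1.38 after thinning and -0.89 without fibroblast UMIs. Levels and shares were less stable. Of 1920 alternatives for the level of a member, 447 moved and 0 turned. Of 160 shares of barcodes, 89 moved when barcodes were thinned to 1000 UMIs. Of 291 counts of members, 244 stayed within 1.5 times. Neither the mean of barcode levels, a pseudocount of 1 CPM nor a stricter non-endothelial gate moved a count, and nor did coronary barcodes without endocardial or valve gate UMIs. Alternatives without fibroblast, lymphatic or these gate UMIs were added after seeing the data. The cause of each move was not tested, but some settings left few barcodes by their construction.

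The counts here and in the next paragraph are given without the number of members still compared. The share of all genes in the same setting is not given either. Thinning and the removal of barcodes leave fewer UMIs under the same limit of 20, so a low count is not a result about the members. Members higher in valve-gated than coronary barcodes numbered 4 at E12 in the main analysis. They were 2 within the upper limits of the study, 2 without doublets, 2 with a valve gate of 3 UMIs, 2 without lymphatic UMIs, 1 without fibroblast UMIs, 1 without the highest barcode and 0 after thinning. At E15 the 5 became 3 without the highest barcode and 1 after thinning, and in the adult the 8 became 5 without fibroblast UMIs and 1 after thinning. Members higher in endocardial than coronary barcodes at E12, 3 in the main analysis, were 5 in barcodes of at least 1000 UMIs, 5 without doublets, 5 after removing free RNA, 6 without the highest barcode and 0 after thinning. The 4 at E15 became 2 after thinning and 2 without fibroblast UMIs, and the 6 of the adult became 3 after thinning. For non-endothelial barcodes, 9 at E12 became 3 after thinning, and 7 at P2 became 3 with each barcode in 1 class, which left 2 barcodes.

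Members higher in valve-gated than endocardial barcodes were 3 at E12, then 1 after thinning, 1 without the highest barcode and 0 without fibroblast UMIs. At E15 the 4 became 1 after thinning. At P2 the 2 became 4 with the stricter valve gate, 4 without lymphatic and 1 without fibroblast UMIs. In the adult the 1 became 2 within the study limits, without doublets, with each barcode in 1 class and with an endothelial UMI asked for, 3 without the filter on low counts, and 0 after thinning or without fibroblast UMIs. Members lower in the adult than at E12 were 3 in endocardial barcodes, then 0 after thinning and 1 without fibroblast UMIs. In valve-gated barcodes the 2 became 1 within the study limits, without doublets or with an endothelial UMI, 4 without the filter, and 0 after thinning, without the highest barcode or without fibroblast UMIs. In coronary barcodes the 4 became 2 after removing free RNA or without fibroblast UMIs and 0 after thinning.

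No paired analysis was possible because the stages, which are the groups of the labels, had 1 library and 1 replicate number each. Classes are paired within the libraries, and their differences over the 4 libraries were taken in an exact sign permutation test, added after seeing the data. A model across all genes with the library as a block was not run. With no replicate, variation between animals or libraries is in none of the intervals. Small classes limit the precision, namely the 21 valve-gated barcodes of E12, 22 of the adult and 13 non-endothelial barcodes of P2.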

Other observations

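Member UMIs were unevenly spread over the barcodes of small classes. In valve-gated barcodes of the adult, 1 of 22 held 115 of 479 Dcn UMIs (24.0%) and 1 held 16 of 59 Postn UMIs (27.1%). In endocardial barcodes of P2, 1 of 1082 held 31 of 61 Col1a1 UMIs (50.8%). Bgn was spread more evenly, with 4.82% of its adult endocardial UMIs in the barcode with most of them. In coronary barcodes 56.6% at P2 and 86.3% in the adult had none of the 10 members.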
